A study of Mus musculus with 24 samples.

Results

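A set of 38 liver genes stood near the vehicle level 4 h after the last injection of a drug that activates the glucagon receptor and away from it at 22 h: 15 were higher at 22 h (risers) and 23 were lower (fallers). The members were chosen by their measured group means, so their changes are given as a description and no test of those changes is used to support them. A gene had to reach a mean of 5 CPM (a gene's count as a share of its library's total, in parts per M counts) in at least 1 group and had to have a 4 h mean of no less than 0.87 times and no more than 15% above the vehicle mean. Its 22 h to vehicle ratio then had to be at least 1.5 for a riser or at most 0.67 for a faller. Of 22355 genes in the table, 6370 with established names reached 5 CPM and 2541 of those were near vehicle at 4 h, of which the risers were 0.59% and the fallers 0.905%. A further 10 risers and 1 faller without an established name were left out.

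The 24 mice were diet-induced obese (DIO) and were given vehicle or IUB288 for 4 d, with 8 mice per group. IUB288 is the code name of a compound that acts as an agonist at the glucagon receptor. Livers came from vehicle mice 22 h after the last injection, from IUB288 mice 4 h after it and from other IUB288 mice 22 h after it, so each mouse gave 1 time and no liver was followed over time. No vehicle liver of the 4 h time is among the samples, so for the 4 h values IUB288 and time since injection cannot be told apart. Strain, sex, age, dose and hour of the day are not given in the sources used here, and whole liver holds several cell types. The series describes the replicates as separate mice.

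Library totals ran from 13.99 to 44.1 M counts. Vehicle liver 1 was left out by the rule, and the vehicle group below is livers 2 to 8. In that library the brown fat gene Ucp1 stood at 1432 CPM, while no other library exceeded 0.590 CPM, and its summed fat markers stood at 5854 CPM against 316 to 453 CPM in the other vehicle livers. The same library lay above the range of the other vehicle livers for 6 of the 15 risers, below it for 4 and within it for 5. The 6 include Egr1 (35.0 CPM), Abcc4 (19.2 CPM), Mup1 (99.9 CPM) and Relb (16.2 CPM). For the 23 fallers these counts were 9, 2 and 12. Hepatocyte markers such as Alb were high in all libraries, with Alb at 36297 CPM or more. The table ends at the Entrez number 50932 in text order and holds 53.5% of the RefSeq protein-coding genes, so members of the same pathways can be among the genes not analysed here.

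Glucagon acts on hepatocytes through a Gs-coupled receptor that raises cyclic AMP and activates protein kinase A and the transcription factor CREB. The known response raises glucose output and amino acid breakdown and lowers lipid synthesis. Early CREB targets are typically induced within hours and shut off again, while later changes pass through other transcription factors, sterol and bile acid levels, food intake and the other cells of the liver. CREB binds an 8-base palindrome, the cyclic AMP response element. Sterol genes answer to SREBP2, which is processed when membranes lack cholesterol, and interferon-stimulated genes answer to STAT and IRF factors at a repeat of GAAA units.

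At 22 h, livers 6 and 7 stood apart from the other 6, and many of the faller values rest on them. This pair held the lowest 2 of the 8 values at 22 h for 28.65% of the 6370 genes, against 5.04% for the pair next in order. Their summed Kupffer, stellate, endothelial, neutrophil and cholangiocyte markers were below every other liver at 22 h. T, NK and B cell markers were below in liver 7 (9.78 CPM) but not in liver 6 (17.0 CPM, against 13.9 to 35.9 CPM in the other 6). Erythroid markers, at 160 and 172 CPM, were inside the range of the other 6 (130 to 226 CPM). Kupffer cell and macrophage markers summed to 287 and 282 CPM against 543 to 1079 CPM in the other 6, stellate cell and fibroblast markers to 400 and 403 against 764 to 1129 CPM, and endothelial markers to 285 and 269 against 456 to 683 CPM. Hepatocyte markers summed to 112280 and 100787 CPM against 97137 to 112271 CPM. In bulk liver, fewer cells of a type and less RNA per cell cannot be told apart. Without livers 6 and 7, 14 of the 15 risers still passed the 22 h limit, Chrd being the exception at a ratio of 1.42, but only 9 of the 23 fallers did, among them E2f8, Erbb4, Lipg, Hsd17b7, Cish, Cxcl9, Pank3 and Bsdc1. Livers 6 and 7 were the lowest 2 at 22 h for 12 of the 23 fallers.

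**Figure D1:**
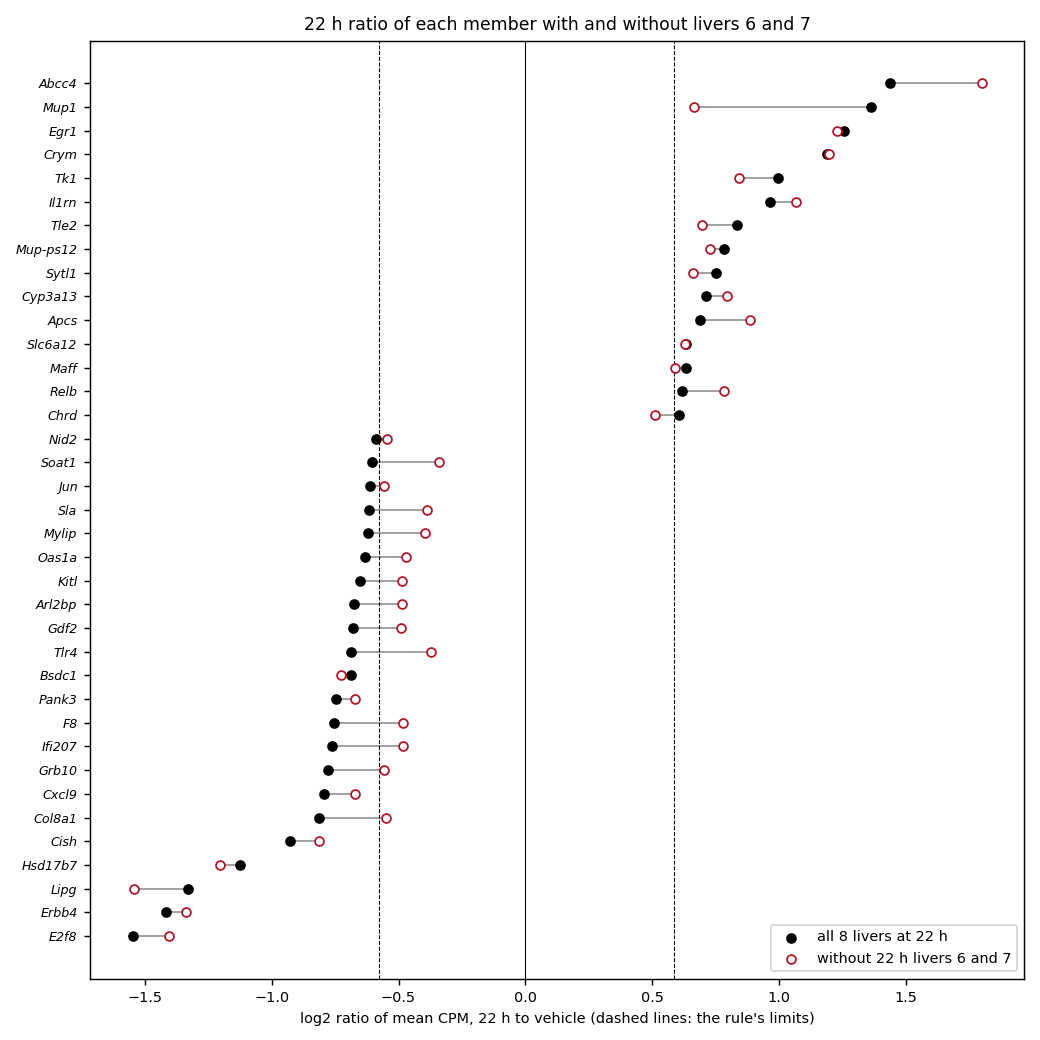
Ratio of the 22 h mean to the vehicle mean on a log2 scale (x axis) for 37 of the 38 genes (y axis), over all 8 livers at 22 h (filled points) and without livers 6 and 7 (open points), with the limits of the rule as dashed lines. For 14 fallers and 1 riser the open point lies inside the limit.

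The 3 marker lists were also lower at 22 h than in vehicle over the whole group. Of the tested genes of each list, 11 of 18 Kupffer and macrophage markers, 20 of 22 stellate and fibroblast markers and 16 of 16 endothelial markers were called lower by limma-voom at an adjusted p under 0.05, and none higher. At 4 h the calls were 6, 14 and 5 lower. Over all 11614 genes tested, 22.3% were called higher and 21.7% lower than vehicle at 4 h. At 22 h these shares were 17.8% higher and 18.8% lower. They are the background for every list count against vehicle given here and below, and no list was tested against them. The summed Kupffer markers were 916 to 1703 CPM in vehicle, 548 to 990 CPM at 4 h and 282 to 1079 CPM at 22 h. The summed stellate markers were 1247 to 1749, 665 to 1197 and 400 to 1129 CPM in the same order, and the summed endothelial markers 586 to 957, 590 to 736 and 269 to 683 CPM. No marker of these 3 lists was at 0 in every library. The summed hepatocyte markers were also lower, at 117939 to 137797 CPM in vehicle, 92980 to 118796 CPM at 4 h and 97137 to 112280 CPM at 22 h, with no overlap between 22 h and vehicle. Of 12 tested hepatocyte markers, 4 were called higher and 5 lower at 4 h, and 5 higher and 3 lower at 22 h.

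The window at 4 h held few of the genes that stood away from vehicle at 22 h. Of 275 named genes at or above the upper 22 h limit, 15 were inside the window, and of 705 at or below the lower limit, 23 were. Both ratios share the same 7 vehicle livers, so these counts are a description. The median 22 h ratio was 1.72 for the risers, 0.597 for the fallers and 0.998 for all 6370 genes, and the median 4 h ratios were 1.05, 0.923 and 0.986.

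**Figure D2:**
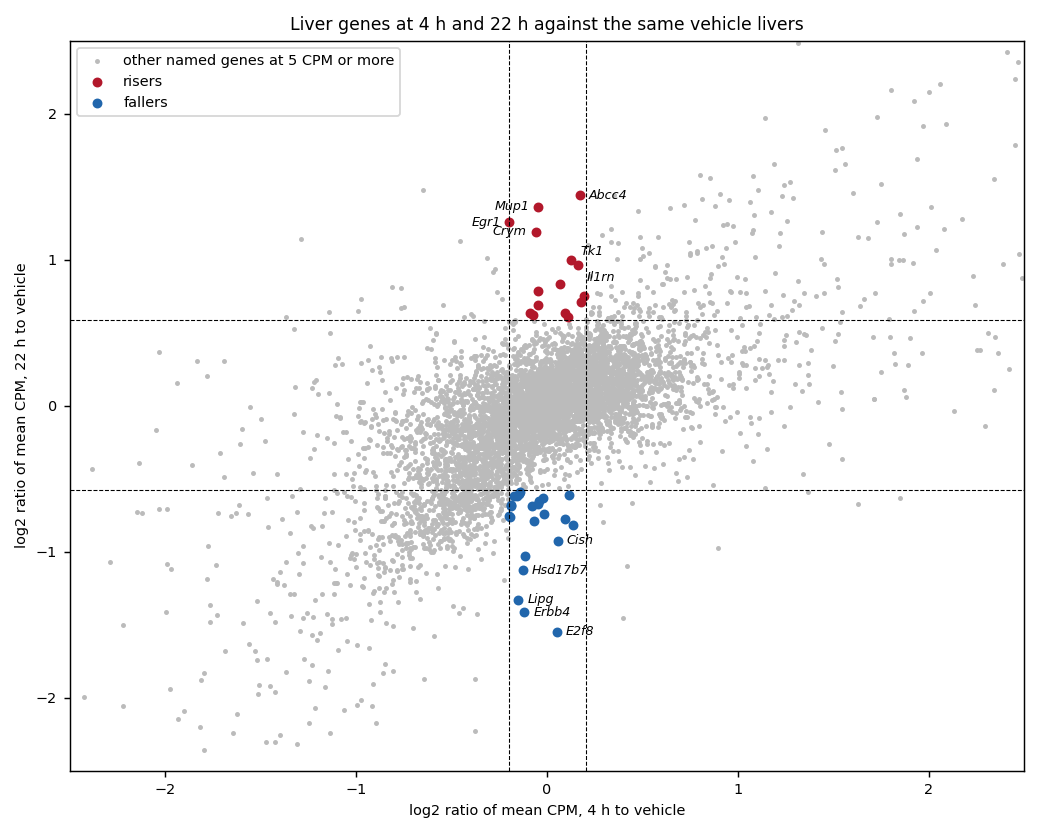
Log2 ratio of mean CPM at 4 h to vehicle (x axis) and at 22 h to vehicle (y axis) for 6370 named genes of at least 5 CPM, with risers in red, fallers in blue and the limits of the rule as dashed lines. Both axes stop at 2.5, which leaves 65 genes outside the frame, and the members fill the middle column above 1.5-fold and below 0.67-fold.

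Membership depended on where the limits lay. Just inside the upper 22 h limit were Relb (ratio 1.53) and Chrd (1.52), and just outside were Mup13 (1.499) and Serpinf2 (1.497). Just inside the lower limit were Soat1 (0.658) and Nid2 (0.665), and just outside Ect2 (0.67726) and Ptprb (0.67735). At the 4 h window, Sytl1 (1.144) and Cyp3a13 (1.132) lay just inside the top and Proca1 (1.1503) and Snhg12 (1.1512) just outside, while F8 (0.8701) and Egr1 (0.872) lay just inside the bottom and Slc39a10 (0.8672) and Tlr7 (0.8669) just outside. At the 5 CPM limit, Crym (5.29 CPM) and Oas1a (6.01 CPM) were inside and Ccne2 (4.91 CPM) and Ccna2 (4.71 CPM) outside. Leaving out each of the 23 libraries in turn, the rule still took 5 risers every time (Crym, Tle2, Mup-ps12, Slc6a12 and Maff) and 7 fallers (among them E2f8, Erbb4, Hsd17b7, Grb10, Pank3 and Arl2bp). The 7 fallers were taken again when livers 6 and 7 were left out one at a time, but 2 of them, Grb10 and Arl2bp, were not when both were.

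The limma-voom fit over 11614 genes used the same contrasts as the rule, so its calls are printed beside the calls over all genes and nothing is read from them. Against vehicle at 22 h, 12 of 15 risers were called higher (17.8% of all genes tested) and 21 of 23 fallers lower (18.8%), at an adjusted p under 0.05. Mup1, Abcc4, Relb, Cish and Bsdc1 were not called. Against 4 h, 13 risers were called higher (15.2% of genes) and 23 fallers lower (16.9%), with Mup1 and Abcc4 not called. Without 22 h livers 6 and 7, 14 risers were called higher than vehicle at 22 h (15.2% of 11710 genes) and 18 fallers lower (15.3%), with Abcc4 and Relb now called and Col8a1, F8 and Tlr4 no longer called. Between 4 h and vehicle no member was called, against 22.3% of genes called higher and 21.7% lower, and 1 member, Cyp3a13, had an unadjusted p under 0.05. The 95% interval of the 4 h log2 difference lay within 0.5 either side of 0 for 9 risers and 12 fallers, and for the other 17 members a change of that size at 4 h lies inside the interval. All 38 genes differed in the same direction in mice numbered 1 to 12 and in mice numbered 13 to 24, and 10 risers and 10 fallers passed the 22 h limit in both sets. Both sets are parts of the libraries that chose the members, so this is a description and not a second test. Livers 6 and 7 at 22 h are both in the set numbered 13 to 24 (mice 18 and 19). At 22 h all 8 livers lay above every vehicle liver for 5 risers (6.36% of the 6370 genes) and below every vehicle liver for 4 fallers (6.25%).

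Among the risers, 4 genes code for regulators of transcription, and Chrd codes for a secreted antagonist of BMP ligands. Egr1, an immediate-early zinc finger factor, stood at 12.7 to 25.7 CPM in vehicle (median 15.4), 13.9 to 18.6 CPM at 4 h (median 15.5) and 19.5 to 80.5 CPM at 22 h (median 41.0). All 8 livers at 22 h lay above all 8 at 4 h, and 6 of them lay above the highest vehicle liver. Its mean was 18.1 ± 4.97 CPM in vehicle (SD, n = 7), 15.8 ± 1.51 CPM at 4 h and 43.2 ± 20.3 CPM at 22 h (SD, n = 8 each), a 22 h ratio of 2.39. The spread at 22 h was wider than in the other groups.

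Maff codes for a small MAF protein, which has no activation domain of its own and pairs with NRF2 and other CNC factors. Its level was 10.1 to 15.1 CPM in vehicle (median 12.2), 7.20 to 13.6 CPM at 4 h (median 12.3) and 11.4 to 21.5 CPM at 22 h (median 20.1). At 22 h 7 of the 8 livers lay between 19.1 and 21.5 CPM, above every vehicle and 4 h liver, and liver 8 stood alone at 11.4 CPM. The 22 h ratio was 1.55. Of the 11 risers with a promoter in the RefSeq table, Maff alone held the full cyclic AMP response element TGACGTCA. Of 27025 genes, 1.77% hold it in the 250 bases before a start, the stretch searched for every motif here. The stretch is shown because this is the CREB palindrome, with its 8 bases in capitals, on the plus strand of GRCm38.p6 at chr15:79347400-79347519, before 1 of 3 starts that the table lists:
Maff: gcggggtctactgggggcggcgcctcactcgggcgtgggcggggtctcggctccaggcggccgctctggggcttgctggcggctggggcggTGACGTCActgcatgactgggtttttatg
Whether CREB binds there was not measured, and a match of letters is no binding site.

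Tle2, a Groucho family corepressor, stood at 3.48 to 6.25 CPM in vehicle (median 5.29), 3.73 to 6.20 CPM at 4 h (median 5.41) and 6.86 to 13.8 CPM at 22 h (median 8.58). Its 22 h livers lay above all vehicle and all 4 h livers. Relb, a subunit of the non-canonical NF-kB complex, stood at 2.71 to 5.43 CPM in vehicle, 1.66 to 6.16 CPM at 4 h and 2.87 to 11.0 CPM at 22 h, and its groups overlapped. Its ratio was 1.85 in mice 1 to 12 and 1.22 in mice 13 to 24. The vehicle library left out by the rule stood at 16.2 CPM for Relb, above every liver at 22 h. Chrd, the secreted BMP antagonist chordin, stood at 3.50 to 4.31 CPM in vehicle, 3.23 to 5.29 CPM at 4 h and 4.05 to 8.46 CPM at 22 h. Chrd overlaps Thpo and Tle2 overlaps Tle6 on the other strand, and the strand setting of the counting is not given in the sources used here. Relb belongs to a list of NF-kB and cytokine signalling genes with the fallers Cxcl9 and Cish. Of the 23 tested genes of that list, 4 were called higher and 5 lower at 4 h, and 7 higher and 4 lower at 22 h.

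Secreted proteins of the inflammatory response made up another group of risers. Il1rn, the interleukin-1 receptor antagonist, stood at 14.9 to 33.0 CPM in vehicle (median 22.7), 14.2 to 34.4 CPM at 4 h (median 28.9) and 23.7 to 79.3 CPM at 22 h (median 43.3). Each liver at 22 h lay above the vehicle mean of 23.2 ± 5.59 CPM (SD, n = 7), 6 of them above every vehicle liver. The vehicle library left out by the rule stood at 75.6 CPM, near the highest at 22 h. Apcs, the pentraxin serum amyloid P, had a 22 h ratio of 1.61, but the livers divided. Its level was 93.7 to 128 CPM in vehicle and 73.5 to 124 CPM at 4 h. At 22 h livers 1, 3, 5 and 8 stood at 177, 185, 380 and 226 CPM and livers 2, 4, 6 and 7 at 98.5, 104, 89.8 and 100.4 CPM, inside or below the vehicle range. Of 24 tested acute phase genes, 7 were called higher and 11 lower at 4 h, and 10 higher and 8 lower at 22 h.

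Abcc4 codes for MRP4, a transporter of the sinusoidal hepatocyte membrane that carries bile acid conjugates and cyclic nucleotides out of the cell. Its level was 7.46 to 11.3 CPM in vehicle (median 8.58) and 5.49 to 12.3 CPM at 4 h (median 10.9). At 22 h livers 3, 5 and 8 stood at 48.5, 50.6 and 48.7 CPM, livers 1, 2 and 4 at 11.5, 17.4 and 9.00 CPM, and livers 6 and 7 at 3.66 and 3.43 CPM, the lowest of all 24 libraries. The mean ratio of 2.71, the highest of all risers, therefore describes 3 of 8 livers, and the SD of 21.3 CPM around the mean of 24.1 CPM (n = 8) covers the vehicle level. The livers high for Abcc4 were also 3 of the 4 high for Apcs. Of 43 tested ABC, SLCO and SLC22 transporters, 7 were called higher and 12 lower at 4 h, and 11 higher and 15 lower at 22 h.

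Slc6a12, the betaine and GABA transporter BGT1, was among the steadiest risers. Its level was 40.0 to 52.1 CPM in vehicle (median 42.0), 38.9 to 60.8 CPM at 4 h (median 47.3) and 55.1 to 85.0 CPM at 22 h (median 68.9). All 8 livers at 22 h lay above every vehicle liver, and 1 of the 4 h livers reached into their range. Among 19 tested amino acid transporters, 7 were called higher and 2 lower at 4 h, and 7 and 2 at 22 h.

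The most abundant riser was Cyp3a13, a cytochrome P450 of drug and steroid oxidation. It stood at 258 to 303 CPM in vehicle (median 276), 258 to 371 CPM at 4 h (median 313) and 342 to 670 CPM at 22 h (median 434). The mean was 279 ± 15.6 CPM in vehicle (SD, n = 7), 315 ± 41.8 CPM at 4 h and 457 ± 104 CPM at 22 h (SD, n = 8 each). No liver at 22 h lay below the highest vehicle liver, while the 4 h livers spanned both ranges. With the 4 h ratio of 1.13 it stood near the top of the window, and without 4 h liver 5 or 7 it was called higher at 4 h in the limma fit. Of 40 tested cytochrome P450 genes of families 1 to 4, 4 were called higher and 16 lower at 4 h, and 11 higher and 15 lower at 22 h.

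Crym and Tk1 had the largest ratios among the risers whose 22 h livers lay above every vehicle liver. Crym codes for mu-crystallin, a ketimine reductase that also binds thyroid hormone in the cytosol. It stood at 1.51 to 2.95 CPM in vehicle (median 2.503), 1.58 to 3.17 CPM at 4 h (median 2.14) and 4.09 to 7.32 CPM at 22 h (median 5.12), with no overlap of the 22 h group with either other group. Crym passed the 5 CPM minimum only through the 22 h group, as did Relb and Chrd. Tk1, the cytosolic thymidine kinase of S phase, stood at 5.65 to 10.6 CPM in vehicle (median 7.08), 6.45 to 10.3 CPM at 4 h (median 8.31) and 11.4 to 21.6 CPM at 22 h (median 14.4). The 22 h group again overlapped with neither other group, and its highest 2 livers were 6 and 7 at 21.6 and 18.7 CPM. Tk1 overlaps Afmid on the other strand, and the strand setting of the counting is not given in the sources used here.

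The cell cycle list that holds Tk1 was divided. Of 36 tested proliferation genes, 3 were called higher and 3 lower at 4 h, and 3 higher and 6 lower at 22 h, with a median log2 difference of -0.35 at 22 h. The faller with the lowest 22 h ratio, E2f8, is on the same list.

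Sytl1, a Rab27 effector of vesicle docking, stood at 3.36 to 5.89 CPM in vehicle, 4.06 to 6.54 CPM at 4 h and 5.75 to 11.0 CPM at 22 h, and all 8 livers at 22 h lay above the vehicle mean. The remaining risers were Mup1 and Mup-ps12, from the chromosome 4 cluster of major urinary protein genes, whose copies are near-identical so that reads may be split among them. Mup1 stood at 3.59 to 64.2 CPM in vehicle, 6.39 to 80.1 CPM at 4 h and 4.05 to 274 CPM at 22 h. Its 22 h mean of 73.7 CPM came from livers 2 and 6 at 205 and 274 CPM, the other 6 lay between 4.05 and 42.1 CPM, and the ratio of medians was on the other side of 1 (log2 ratio -0.43). Mup-ps12, a pseudogene in GENCODE and protein-coding in RefSeq, stood at 19.6 to 36.2 CPM in vehicle, 17.4 to 31.9 CPM at 4 h and 32.1 to 72.3 CPM at 22 h, with livers 2 and 6 again highest at 72.3 and 66.1 CPM. Mup-ps12 overlaps Mup-ps13 on the same strand and Mup16 on the other, and the strand setting of the counting is not given. Mup16 had means of 63.5 CPM in vehicle and 52.5 CPM at 22 h. Over the 20 Mup genes of at least 5 CPM the 22 h ratio ran from 0.386 to 2.57, and 13 were above 1.

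**Figure D3:**
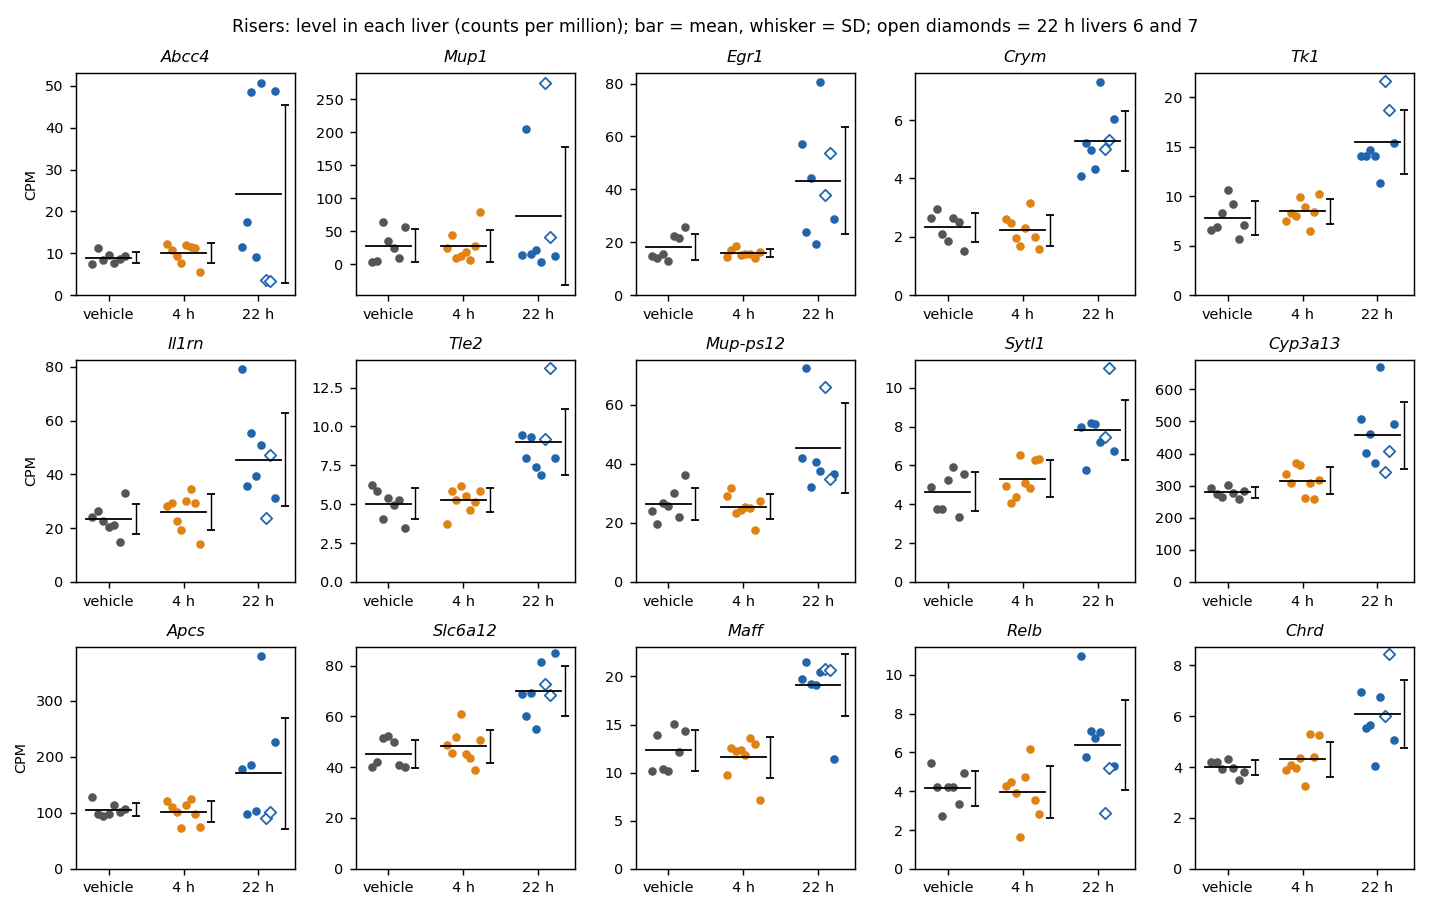
Level of the 15 risers in CPM (y axes, each panel on its own scale) in each vehicle liver (2 to 8), 4 h liver and 22 h liver, with the group mean as a bar, the SD as a whisker and 22 h livers 6 and 7 as open diamonds. Crym, Tk1, Tle2, Cyp3a13 and Slc6a12 show no overlap between 22 h and vehicle, while Abcc4, Mup1 and Apcs divide the 22 h livers.

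Among the fallers of lipid metabolism, Hsd17b7 codes for an enzyme that besides its 17-beta-hydroxysteroid activity reduces the 3-keto group in cholesterol synthesis. It stood at 104 to 165 CPM in vehicle (median 138), 99.6 to 156 CPM at 4 h (median 119) and 46.5 to 85.2 CPM at 22 h (median 57.8), with no overlap of the 22 h group with the others. Its mean was 134 ± 24.5 CPM in vehicle (SD, n = 7) and 61.2 ± 11.6 CPM at 22 h (SD, n = 8), a ratio of 0.458. Liver 6 was the highest at 22 h.

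The other sterol genes of the table were mostly lower by 4 h. Of 22 tested genes of a cholesterol synthesis list, 18 were called lower and 1 higher at 4 h and 20 lower and none higher at 22 h, and 8 were called lower at 22 h than at 4 h. Hmgcs1, which makes HMG-CoA, had means of 905, 173 and 136 CPM in vehicle, at 4 h and at 22 h, a limma log2 difference of -2.38 at 4 h (adjusted p = 1.92e-10). Sqle, the squalene epoxidase, had 97.7, 31.2 and 20.7 CPM. Among the genes not called lower at 4 h were, besides Hsd17b7, Ebp and Scap, which had means of 150 and 68.5 CPM in vehicle and 162 and 75.0 CPM at 22 h. Scap, the escort of SREBP2, was the gene called higher at 4 h. That Hsd17b7 was not called at 4 h is fixed by the way the members were chosen.

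Mylip codes for IDOL, a ubiquitin ligase that is known as a target of the oxysterol receptor LXR. It stood at 19.5 to 29.0 CPM in vehicle (median 26.0), 17.4 to 26.9 CPM at 4 h (median 22.2) and 7.40 to 21.3 CPM at 22 h (median 18.5). Livers 6 and 7 were lowest at 8.84 and 7.40 CPM, livers 1 and 5 at 17.03 and 14.5 CPM also lay below every vehicle liver, and the other 4 lay inside the vehicle range. Without livers 6 and 7 the ratio was 0.760 in place of 0.651. Soat1, which esterifies cholesterol in macrophages and other cells, stood at 14.9 to 23.4 CPM in vehicle, 11.4 to 21.8 CPM at 4 h and 4.55 to 17.8 CPM at 22 h. The lowest were again livers 6 and 7 at 4.55 and 4.93 CPM, and the ratio went from 0.658 to 0.790 without them.

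Lipg, the endothelial lipase that hydrolyses HDL phospholipids, stood at 23.3 to 51.4 CPM in vehicle (median 41.7), 26.6 to 50.5 CPM at 4 h (median 37.5) and 7.98 to 29.5 CPM at 22 h (median 15.1). At 22 h 7 of 8 livers lay below every vehicle liver, and liver 6 was the exception at 29.5 CPM. The ratio was 0.398, and 0.343 without livers 6 and 7. Pank3, a pantothenate kinase at the first step of coenzyme A synthesis, stood at 97.8 to 184 CPM in vehicle (median 165), 136 to 196 CPM at 4 h (median 153) and 69.8 to 111 CPM at 22 h (median 93.3). All 8 livers at 22 h lay below all 8 at 4 h, and vehicle liver 2 was the 1 vehicle liver inside the 22 h range. The microRNA gene Mir103-1 lies within Pank3 on the same strand.

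E2f8 and Erbb4 had the lowest 22 h ratios. E2f8, an atypical E2F repressor linked to hepatocyte polyploidy, stood at 12.6 to 19.3 CPM in vehicle (median 15.1), 10.4 to 21.8 CPM at 4 h (median 14.9) and 3.23 to 6.50 CPM at 22 h (median 5.71). No liver at 22 h reached the lowest of either other group. The SD was 2.29 CPM in vehicle (n = 7) and 1.38 CPM at 22 h (n = 8), and the ratio of means was 0.342, and 0.377 without livers 6 and 7. The vehicle library left out by the rule stood at 5.17 CPM, inside the 22 h range. Erbb4, a receptor tyrosine kinase for neuregulins, stood at 5.36 to 10.4 CPM in vehicle (median 7.08), 4.13 to 8.36 CPM at 4 h (median 6.51) and 2.00 to 4.02 CPM at 22 h (median 2.53), again with no overlap. Its ratio was 0.375, with 0.440 and 0.327 in the 2 sets of mouse numbers.

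Other fallers belong to growth factor and cytokine signalling. Grb10, an adaptor that restrains the insulin and IGF1 receptors, stood at 8.45 to 13.1 CPM in vehicle (median 10.5), 9.90 to 12.7 CPM at 4 h (median 10.9) and 2.59 to 11.3 CPM at 22 h (median 6.00). At 22 h 7 livers lay below every vehicle and 4 h liver and liver 8 stood at 11.3 CPM. Cish, a STAT5-induced brake on cytokine receptors, stood at 2.93 to 24.3 CPM in vehicle (median 9.02), 5.01 to 21.2 CPM at 4 h (median 11.5) and 2.73 to 8.83 CPM at 22 h (median 6.14). The spread narrowed at 22 h, with an SD of 1.84 CPM against 7.98 CPM in vehicle, and the groups overlapped. Of 27 tested genes of the growth hormone, IGF and insulin axis, 9 were called higher and 4 lower at 4 h, and 10 higher and 7 lower at 22 h.

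Gdf2, which codes for BMP9, a ligand made by stellate cells that acts on endothelium, stood at 20.7 to 29.5 CPM in vehicle (median 25.7), 17.8 to 28.6 CPM at 4 h (median 21.4) and 8.63 to 21.8 CPM at 22 h (median 15.9). Livers 6 and 7 were lowest at 9.72 and 8.63 CPM, and the ratio went from 0.625 to 0.713 without them. Kitl, the ligand of the KIT receptor, stood at 6.86 to 12.6, 7.96 to 11.9 and 3.57 to 9.17 CPM in vehicle, at 4 h and at 22 h. Jun, a subunit of AP-1 and like Egr1 an immediate-early gene, stood at 33.6 to 79.4 CPM in vehicle (median 63.2), 45.2 to 94.5 CPM at 4 h (median 64.03) and 30.2 to 50.3 CPM at 22 h (median 42.7). All 8 livers at 22 h lay below its vehicle mean, whereas all 8 lay above the vehicle mean of Egr1. Jun overlaps its antisense gene Junos, and the 2 cannot be told apart without a strand setting.

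Among innate immune genes, Cxcl9, an interferon-gamma-induced chemokine, stood at 29.5 to 70.5 CPM in vehicle (median 47.1), 19.9 to 73.7 CPM at 4 h (median 43.8) and 17.7 to 39.7 CPM at 22 h (median 25.8). At 22 h 6 of 8 livers lay below every vehicle liver, and the vehicle library left out by the rule stood at 190 CPM. Oas1a, an interferon-induced oligoadenylate synthetase, stood at 5.15 to 6.58, 3.91 to 10.2 and 1.53 to 6.24 CPM in vehicle, at 4 h and at 22 h. Ifi207, of the interferon-inducible p200 family, stood at 13.01 to 19.7, 13.6 to 20.6 and 2.53 to 14.5 CPM. The lowest 2 values for Ifi207 were those of livers 6 and 7, at 2.53 and 4.69 CPM, and liver 6 the lowest for Oas1a at 1.53 CPM. Of 23 tested interferon-stimulated genes, 8 were called lower and 1 higher at 4 h, and 11 lower and 1 higher at 22 h.

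The interferon response element, searched on both strands as GAAA, any 2 bases and GAAA, occurred in the promoters of E2f8, Ifi207 and Oas1a, which is 3 of the 18 fallers and none of the 11 risers with a RefSeq promoter. It occurs in 3.46% of 27025 genes. The stretches of the latter 2 genes are printed because both are interferon-inducible, from the minus strand of GRCm38.p6 at chr5:120907526-120907675 and chr1:173741810-173741959, with the repeat in capitals. In Oas1a the capitals cover 2 overlapping matches.
Oas1a: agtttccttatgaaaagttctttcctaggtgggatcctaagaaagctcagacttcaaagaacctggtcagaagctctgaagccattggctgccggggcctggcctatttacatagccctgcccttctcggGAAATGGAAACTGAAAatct
Ifi207: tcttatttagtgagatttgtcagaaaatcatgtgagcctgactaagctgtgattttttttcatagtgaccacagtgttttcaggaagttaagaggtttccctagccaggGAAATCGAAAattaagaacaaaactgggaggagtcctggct
The CCAAT box, searched as CCAAT on both strands, was in 10 of the 18 faller promoters and 2 of the 11 riser promoters, against 37.5% of genes. AP-1 sites (TGANTCA) were in 3 riser promoters (Cyp3a13, Slc6a12 and Il1rn) and no faller promoter, against 7.82% of genes. The motifs printed here are a selection of those searched. The shorter cyclic AMP motif TGACG was in 3 of the 11 riser and 4 of the 18 faller promoters, against 19.8% of genes. The nuclear receptor motif AGGTCA was in 3 and 1, against 15.8%. TATAAA was in no riser and 4 faller promoters, against 14.3%. The E2F, GR, HNF4 and D-box motifs were in no member's promoter. An excess over all genes was not tested. Promoters of 29 of the 38 members were in the table, and those that were not include Mup1, Egr1, Crym, Relb, Lipg, Tlr4, Sla and Nid2.

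Tlr4, the lipopolysaccharide receptor, stood at 4.95 to 8.77 CPM in vehicle, 4.23 to 8.47 CPM at 4 h and 0.824 to 7.36 CPM at 22 h. At 22 h livers 6 and 7 stood at 0.824 and 1.46 CPM and the other 6 at 3.12 to 7.36 CPM, and the ratio went from 0.622 to 0.773 without them. Sla, an adaptor that dampens antigen receptor signals in leukocytes, stood at 7.58 to 12.0, 6.31 to 12.2 and 2.76 to 8.74 CPM, also with livers 6 and 7 lowest. Sla lies inside Tg on the other strand.

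F8, coagulation factor VIII, is made mainly by liver endothelium. It stood at 25.7 to 71.2 CPM in vehicle (median 61.5), 43.5 to 54.6 CPM at 4 h (median 51.2) and 12.6 to 52.1 CPM at 22 h (median 36.4). The values of livers 6 and 7 were 13.3 and 12.6 CPM, and the ratio went from 0.593 to 0.716 without them. F8 overlaps Fundc2 on the other strand. The matrix genes Col8a1, a short-chain collagen, and Nid2, a basement membrane nidogen, stood at 3.12 to 7.27 and 6.20 to 9.94 CPM in vehicle and at 0.951 to 5.25 and 4.35 to 7.08 CPM at 22 h. Arl2bp, which binds the small GTPase ARL2, stood at 6.83 to 12.6 CPM in vehicle, 6.00 to 14.4 CPM at 4 h and 3.40 to 8.17 CPM at 22 h. For Bsdc1, vehicle livers 2 and 7 stood at 25.9 and 23.0 CPM and the other 5 at 9.46 to 10.9 CPM, while the livers at 22 h stood at 7.26 to 10.5 CPM. Its ratio of 0.621 therefore rests on 2 vehicle livers, and the log2 ratio of medians was -0.26.

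**Figure D4:**
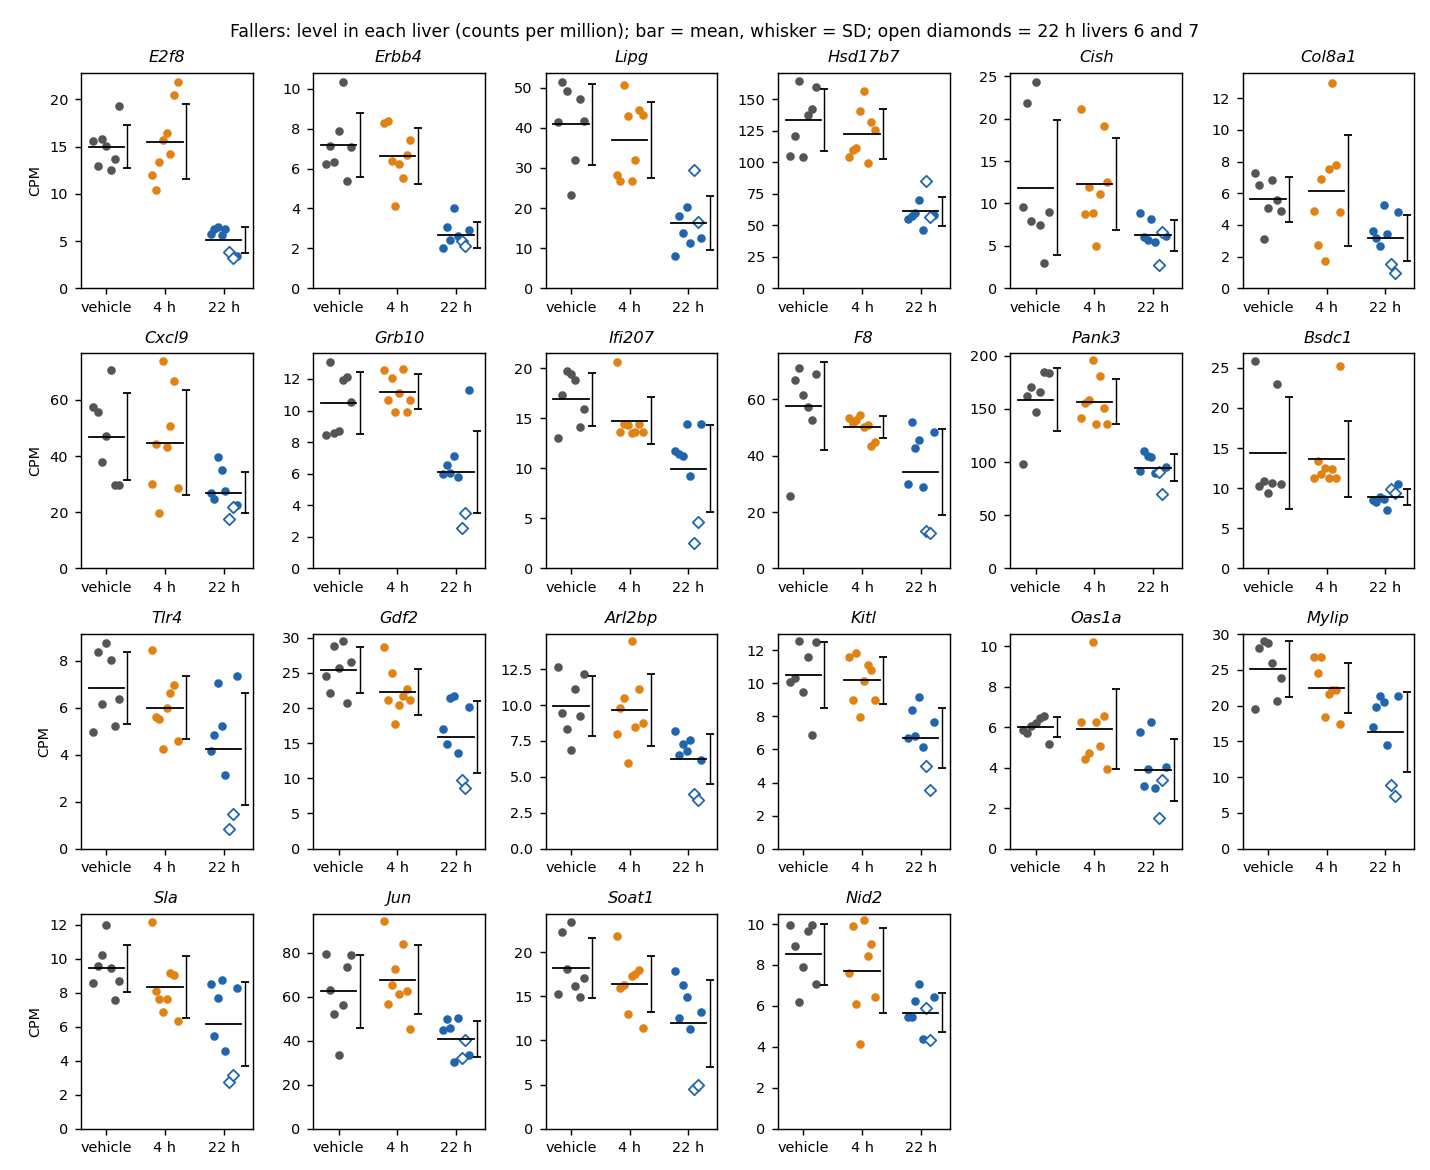
Level of 22 of the 23 fallers in CPM (y axes, each panel on its own scale) in each vehicle liver (2 to 8), 4 h liver and 22 h liver, with the group mean as a bar, the SD as a whisker and 22 h livers 6 and 7 as open diamonds. E2f8, Erbb4 and Hsd17b7 show no overlap between 22 h and vehicle, and the diamonds are lowest for 12 of the 22 genes.

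The rule used group means and not the variation among livers of the same group. It still favours fallers that were low together in 22 h livers 6 and 7, since 14 of the 23 did not pass without them. The faller values over 23 livers are therefore not independent of the rule. After subtracting each group mean from log2(CPM + 0.5), the fallers had a median pairwise r of 0.202 over 253 pairs and 23 livers, and the risers 0.031 over 105 pairs, beside 0.106 for all pairs of the 6370 genes. Without 22 h livers 6 and 7 the median of the fallers was 0.051, and the pairs with r over 0.7 went from 27 to 8. Over the 23 livers, 406675 of the 20285265 pairs of all 6370 genes had r over 0.7. For all genes neither value was computed without livers 6 and 7, so 0.051 and 8 have no background beside them. The closest faller pairs were Sla with Soat1 (r = 0.926, and 0.825 without livers 6 and 7) and Ifi207 with Tlr4 (0.918 and 0.694). The closest riser pairs were Abcc4 with Apcs (0.783 and 0.715) and Il1rn with Relb (0.780 and 0.736). These values are descriptions, since the points share libraries and depth.

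The same deviations were set against the summed log2 level of 6 gene lists (Kupffer, stellate and endothelial markers, interferon-stimulated, cholesterol synthesis and acute phase genes), each without the member itself, over 21 livers without livers 6 and 7. Of 228 relations, 14 had a Pearson r with a Benjamini-Hochberg adjusted p under 0.05 in a two-sided permutation test within groups (100000 resamples), 9 had such a Spearman rho and 8 had both. Leaving out also the 2 livers farthest from the median of the list left the sign of r as it was in each relation named here, and that r stands last in each set of values. How far the members' 22 h levels follow from the makeup of the tissue was not tested.

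Markers of non-parenchymal cells moved with several of the fallers that were low in livers 6 and 7. F8 moved with endothelial markers (r = 0.926, rho = 0.886, permutation p = 1e-05 and 4e-05, adjusted 0.0023 and 0.0091; r = 0.865 without the 2 farthest livers), and 1e-05 is the smallest p that these permutations can give. Mylip did so too (r = 0.798, rho = 0.734, permutation p = 4e-05 and 0.00022, adjusted 0.0046 and 0.023; r = 0.700), as did Ifi207 (r = 0.736, rho = 0.708, permutation p = 0.00042 and 0.001, adjusted 0.016 and 0.026; r = 0.578). Soat1 moved with Kupffer and macrophage markers (r = 0.824, rho = 0.755, permutation p = 8e-05 and 0.0003, adjusted 0.0051 and 0.023; r = 0.770), and so did Sla (r = 0.776, rho = 0.690, permutation p = 9e-05 and 0.00085, adjusted 0.0051 and 0.026; r = 0.750). Gdf2 moved with stellate markers (r = 0.753, rho = 0.747, permutation p = 0.00034 and 0.00067, adjusted 0.016 and 0.025; r = 0.673).

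Relations with the interferon, cholesterol synthesis and acute phase lists follow, together with those that passed in only 1 of r and rho. Cxcl9 moved with interferon-stimulated genes (r = 0.764, rho = 0.751, permutation p = 0.00053 for each, adjusted 0.016 and 0.024; r = 0.805 without the 2 farthest livers). Hsd17b7 moved with the cholesterol synthesis genes in r but missed the threshold in rho (r = 0.719, rho = 0.679, permutation p = 0.00065 and 0.0023, adjusted 0.016 and 0.052; r = 0.603). Against the acute phase genes Hsd17b7 passed in both (r = -0.658, rho = -0.684, permutation p = 0.00055 and 0.00045, adjusted 0.016 and 0.024; r = -0.697). Among the risers, Apcs moved with the other acute phase genes in Pearson's r but not in Spearman's rho (r = 0.755, rho = 0.619, permutation p = 0.0017 and 0.0078, adjusted 0.032 and 0.099; r = 0.486). Relb moved with them in rho but not in r (r = 0.505, rho = 0.662, permutation p = 0.012 and 0.0009, adjusted 0.11 and 0.026; r = 0.660). Tlr4 (stellate and endothelial markers), Oas1a (interferon-stimulated genes) and Cish (Kupffer markers) passed in r but not in rho, with r between 0.602 and 0.695 (permutation p = 0.00092 to 0.0021, adjusted 0.021 to 0.034). No riser passed for any of the 3 non-parenchymal lists in r.

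**Figure D5:**
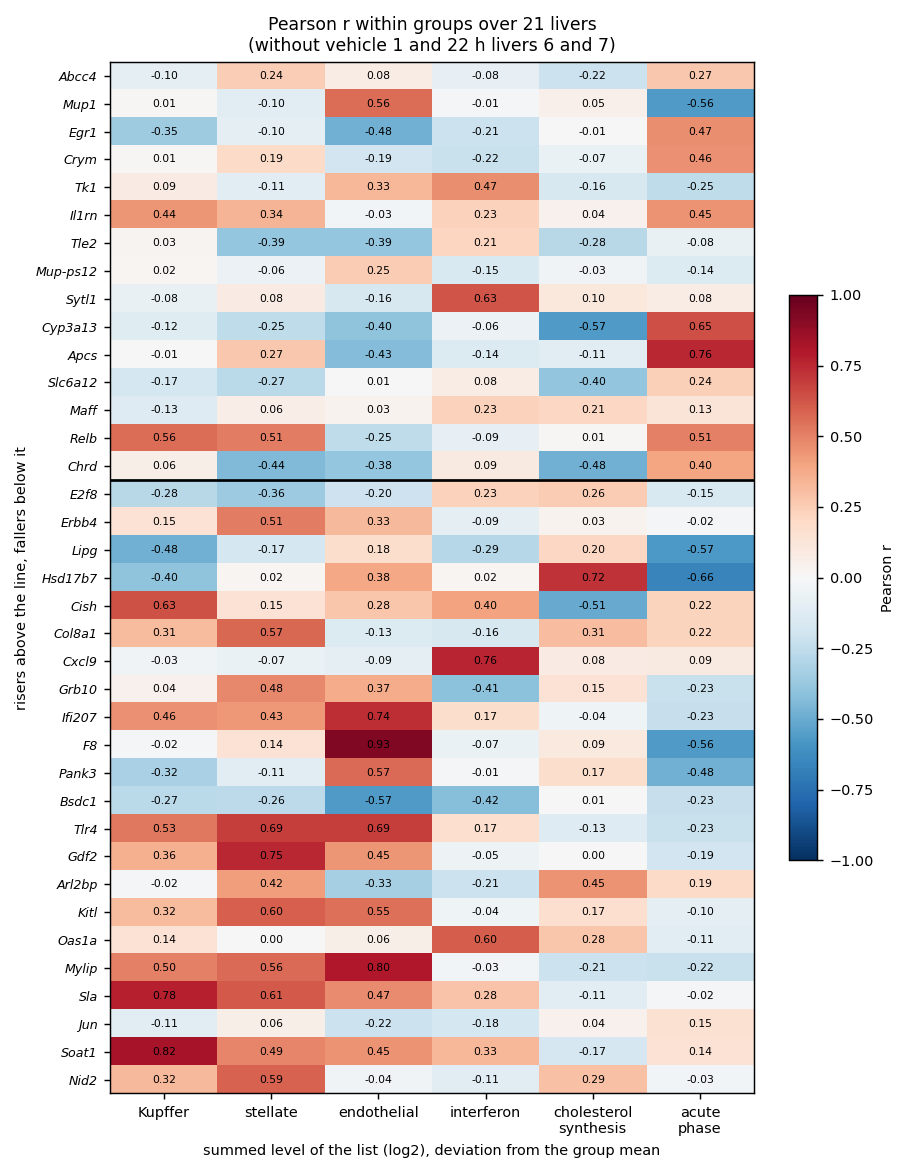
Pearson r (colour and printed value) between 37 of the 38 genes (rows, risers above the line) and the summed level of 6 gene lists (columns), as deviations from group means over 21 livers. The highest value is F8 with endothelial markers at 0.926.

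Of the 9 fallers that passed the rule also without livers 6 and 7, Cish alone had a relation with Kupffer, stellate or endothelial markers at an adjusted p under 0.05 in r (Kupffer markers, r = 0.634, rho = 0.649, permutation p = 0.0021 and 0.0033, adjusted 0.034 and 0.061; r = 0.540). For Hsd17b7, E2f8, Erbb4 and Pank3, r with the 3 lists over the 21 livers lay between -0.403 (Hsd17b7 with Kupffer markers) and 0.566. The highest was Pank3 with endothelial markers (r = 0.566, rho = 0.274, permutation p = 0.027 and 0.23, adjusted 0.18 and 0.59), followed by Erbb4 with stellate markers (r = 0.510, rho = 0.400, permutation p = 0.028 and 0.091, adjusted 0.18 and 0.38). Without the 2 livers farthest from the median of the list these fell to r = 0.124 and 0.281, so both rest on those livers. An adjusted p that misses the threshold over 21 livers does not show that such a relation is absent.

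The members lie on many chromosomes, the risers on 12 and the fallers on 14. On GRCm38, Hsd17b7 (Entrez 15490) spans chr1:169949535-169969242, E2f8 (108961) chr7:48866429-48882073 and Erbb4 (13869) chr1:68031884-69108576. Cyp3a13 (13113) spans chr5:137892933-137925610, Crym (12971) chr7:120186380-120201989, Tk1 (21877) chr11:117815519-117826087 and Slc6a12 (14411) chr6:121342574-121365773. The nearest neighbours among the members were Apcs and Ifi207, 828 kb apart on chromosome 1, and Mup1 and Mup-ps12, 939 kb apart on chromosome 4.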

How the data were processed

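Liver RNA from 24 mice was sequenced after poly(A) library preparation with the KAPA mRNA HyperPrep kit, per the labels' protocols. The submitters' processing notes name cutadapt for trimming, GSNAP for alignment and the build GRCm38; versions, counting tool, annotation and strand setting are not given in the sources used here. The table deposited by the authors holds whole-number counts per Entrez gene, unnormalised, and its quoted layout kept count-only tools from being used. No pair of the 84 within-group pairs agreed within sampling noise (lowest chi-square per degree of freedom 19.3).

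Members were found on CPM from column totals with Python 3.11.15, pandas 2.3.3 and numpy 2.4.6. The limma-voom fit (R 4.3.3, limma 3.58.1) used 23 libraries, genes with a minimum count of 10 and total of 15, TMM scaling (trims of 30% and 5%), an offset of 0.5, and Benjamini-Hochberg adjustment over all 11614 genes with a threshold of 0.05. It had 20 residual and 4.53 prior degrees of freedom and was tested on simulated data. Scaling shifted 22 h against vehicle by 0.042 and 4 h by 0.047 on the log2 scale. The count of a member in a library ran from 28 to 21705, so counting error is larger for low members. Promoters came from RefSeq (GRCm38.p6).

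The members and gene lists were chosen with earlier results of these data known. Genes were named as the members with the largest ratios and no overlap with vehicle, the 5 most abundant, members of a list holding 3 or more, and those nearest the limits; the other members were described after their values were seen. Gene models named Gm with digits or ending in Rik were left out. Livers 6 and 7 at 22 h were set apart after seeing the data. The values of 1 faller are not reported here; it stays in the counts.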

Additional observations from a re-analysis of the deposited data

Results flagged for a closer look

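Over 114 groups of values (38 genes in 3 groups), 9 held a lowest or highest liver far from the rest, where the gap to its nearest neighbour took most of the group's range. Chance gives about 1 in 20 groups.

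At 22 h, liver 7 was highest for Tle2 at 13.8 CPM (next 9.48) and for Sytl1 at 11.0 CPM (next 8.18), liver 5 was highest for Apcs at 380 CPM (next 226) and liver 8 was lowest for Maff at 11.4 CPM (next 19.1). At 4 h, liver 1 was highest for Ifi207 at 20.6 CPM (next 14.4), liver 4 for Oas1a at 10.2 CPM (next 6.53) and liver 8 for Bsdc1 at 25.2 CPM (next 13.4). In vehicle, liver 2 was lowest for F8 at 25.7 CPM (next 52.7) and for Pank3 at 97.8 CPM (next 147).

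Vehicle liver 1, which the rule leaves out, held Ucp1 at 1432 CPM against at most 0.590 CPM in the other libraries.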

How the results depend on the processing

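The number of risers and fallers (15 and 23) moved with the rule's own limits and with the mice used. They were 8 and 9 with a 4 h window of 7% either side, 37 and 71 with a window from 0.8 to 25% above, 4 and 5 with 22 h limits of 2 and 0.5, 29 and 44 with a minimum of 1 CPM and 8 and 9 with 20 CPM. Mice 1 to 12 alone gave 28 and 15, and mice 13 to 24 alone 37 and 120. The set numbered 13 to 24 holds 22 h livers 6 and 7 (mice 18 and 19), and the other set holds neither. All 8 vehicle livers gave 36 fallers, and leaving out 22 h livers 6 and 7 together gave 12. The causes were not tested. Leaving out each library gave 13 to 22 risers and 18 to 32 fallers. Of the 38, 10 risers and 17 fallers were taken again with all 8 vehicle livers, 13 and 22 with TMM scaling (20 and 33 in all) and 7 and 10 with group medians (18 and 22 in all). The log2 ratio of Mup1 was reversed with group medians (-0.43), and no other member changed sign under the settings tried. Members called at 22 h against vehicle (33) were 31 to 34 with each library left out, and at 22 h against 4 h (36) 29 to 36. Without 22 h livers 6 and 7 together they were 32 and 29. At 4 h they were 0 to 1 with each library left out, Cyp3a13 being called without 4 h liver 5 or 7. With a replicate block, calls were 34, 0 and 35 for 22 h against vehicle, 4 h against vehicle and 22 h against 4 h. Deviations of same-numbered livers had r from -0.31 to 0.21 across genes, over 0.1 in 4 of 22 pairs. Differently numbered livers were not set beside them, so this does not settle whether the numbers pair the mice. edgeR and DESeq2 were not run. For 17 members a log2 change of 0.5, up or down, at 4 h lies inside the 95% interval and so is not excluded.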
